A study of Homo sapiens with 12 samples.

Results

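The nuclear receptor coregulators were examined as 9 genes, NCOA1, NCOA2, NCOA3, EP300, CREBBP, MED1, NCOR1, HDAC3 and NRIP1, out of 20098 protein-coding genes on chromosomes 1 to 22 and X. The genes were chosen by name. Promoter windows covered the 1000 bp before and the 100 bp after every GENCODE transcript start of a gene, and a locus was the gene with 10 kb on either side. The libraries came from HCC70, an established triple-negative breast cancer line, so that every group shared this 1 cell line and its culture. Cells received vehicle or the small-molecule RORγ antagonist XY018 for 24 h. The dose was 5 µM by the sample labels and lower by the methods of the study. Chromatin was precipitated with antibodies against SREBP2, against RORγ or against H3K27ac, a histone mark of active promoters and enhancers, with 1 library for each antibody and treatment. The 6 input libraries that complete the 12 samples were not used here.

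Nuclear receptors such as RORγ act on transcription through coregulators. A receptor with agonist binds the p160 coactivators, which bring acetyltransferases that place H3K27ac, and Mediator links these complexes to RNA polymerase II. Corepressor complexes carry histone deacetylases and are held by receptors that are unliganded or bound by some antagonists. SREBP2, the sterol-sensing activator of cholesterol synthesis genes, also works with acetyltransferases and Mediator. The question here was whether SREBP2 and RORγ lay at the genes that encode this machinery, and how those sites compared between vehicle and XY018.

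Between 69700 and 167264 regions were called in a library on these chromosomes. The lists held weak calls, as the lowest −log10 q of a library lay between 0.216 and 0.674. The RORγ and SREBP2 sites that the study counted were a high-confidence selection and fewer. Depth, recovered from the peak values, ran from 3.65 to 6.16 tags per kb. A fold is the deposited enrichment at the summit of a region, the fragments plus 1 over the local background plus 1. Fragment numbers at the summit were recovered from the fold and the −log10 p, and divided by the genome-wide background of the library before treatments were compared. In the H3K27ac lists, 5 of 6 basal breast genes had a promoter region with vehicle and 4 of 6 with XY018, with EGFR at a fold of 83.2 and 104. KRT14 had none. Of 6 luminal and hormone receptor genes 4 were called under both treatments, FOXA1 and GATA3 at folds of 68.9 or more, while PGR and TFF1 had no H3K27ac region. Of 3 leukocyte genes, 0 were called with vehicle and 1 with XY018. Of 3 fibroblast genes 1 was called under both treatments, COL1A1 at folds of 51.2 and 69.2. With 1 library per group, no difference between treatments has a replicate check and no p-value was computed. The 95% intervals (exact Poisson for fragments, exact conditional binomial for ratios and Clopper-Pearson for shares) cover counting error only.

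All 9 coregulator genes had an H3K27ac promoter region under both treatments, and 8 of 9 had an SREBP2 and a RORγ promoter region under both treatments. MED1 was the gene without a region of either factor. Over all protein-coding genes, an SREBP2 promoter region was called for 70.6% with vehicle and 62.7% with XY018, a RORγ region for 62.6% and 61.5%, and an H3K27ac region for 66.8% and 68.0%. Regions of SREBP2, RORγ and H3K27ac that overlapped one another lay at 8 of 9 coregulator promoters with vehicle and at 8 of 9 with XY018, against 48.6% and 48.4% of all genes. Most coding genes carried each single call, so those counts describe the coregulator promoters without setting them apart.

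The strength of these regions was set beside that of all called genes. The median SREBP2 fold was 13.7 at the coregulator promoters and 12.5 over all called genes with vehicle, and 10.7 and 9.03 with XY018. For RORγ the medians were 15.3 and 11.8 with vehicle, and 12.8 and 11.1 with XY018. The H3K27ac medians stood further apart, 58.5 at the coregulators against 24.4 over all called genes with vehicle, and 83.2 against 29.5 with XY018. By these medians the coregulator promoters lay near the middle of the SREBP2 range and towards the upper end of the H3K27ac range. MED1 and HDAC3 were exceptions for H3K27ac, with folds that exceeded those of 27.8% to 32.8% of called genes.

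**Figure D1:**
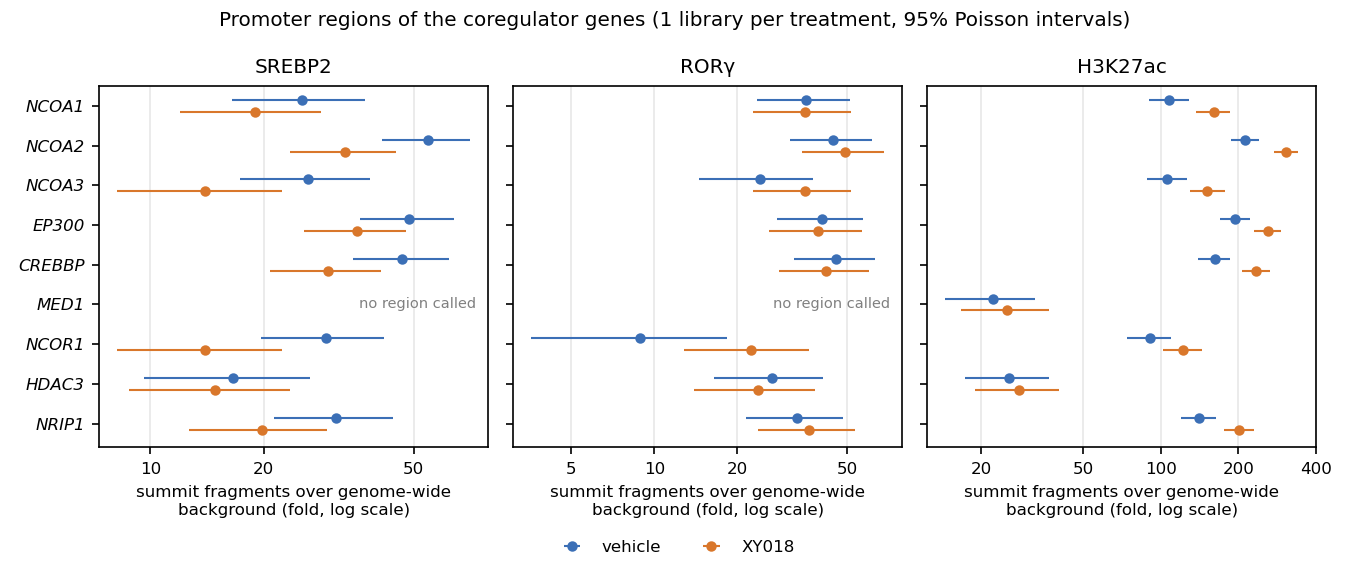
Fragments at the summit of the promoter region called under both treatments, divided by the genome-wide background of the library (fold on a log axis), for SREBP2, RORγ and H3K27ac. Points are single libraries (blue, vehicle; orange, XY018) and bars are 95% Poisson intervals. H3K27ac is lowest at MED1 and HDAC3, and MED1 has no SREBP2 or RORγ region.

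The p160 coactivators are described first. NCOA1, also called SRC-1, is the founding p160 coactivator and lies on the plus strand at chr2:24714123-24993571 (hg19). Its promoter held 26 SREBP2 fragments with vehicle (17.0 to 38.1) and 23 with XY018 (14.6 to 34.5), at folds of 13.3 and 10.8. RORγ gave 28 fragments (18.6 to 40.5) and 25 (16.2 to 36.9), with folds of 16.2 and 15.2. H3K27ac gave 126 fragments (105 to 150) under vehicle and 171 (146 to 199) under XY018. These are fragments as sequenced, and treatments are compared further on as ratios scaled by background. The SREBP2 summit lay 13 bp upstream of the canonical start with vehicle and 385 bp downstream of it, in intron 1, with XY018.

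The bases just upstream of that start are shown because the vehicle SREBP2 summit fell on them. They run over chr2:24713960-24714122 (hg19, plus strand) and 87.1% of them are G or C. Capitals mark GGGCGG, the box that SP1 and related zinc finger proteins bind, and adjoining copies share bases.
NCOA1 promoter: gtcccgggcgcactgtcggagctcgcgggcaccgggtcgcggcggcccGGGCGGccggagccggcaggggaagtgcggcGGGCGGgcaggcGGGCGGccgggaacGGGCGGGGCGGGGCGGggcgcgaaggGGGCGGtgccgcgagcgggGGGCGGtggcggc
This stretch held 8 copies of the box. It held no exact sterol regulatory element and no exact AGGTCA, a hexamer that many nuclear receptors recognise.

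NCOA2, also called SRC-2, GRIP1 or TIF2, lies on the minus strand at chr8:71022017-71316043. Its promoter had the highest H3K27ac pileup of the 9 genes, with 249 fragments (219 to 282) under vehicle and 328 (294 to 366) under XY018, at folds of 83.2 and 147. The XY018 fold exceeded that of 99.9% of called genes. SREBP2 gave 56 fragments (42.3 to 72.7) under vehicle and 40 (28.6 to 54.5) under XY018. Its fold nevertheless stood at 9.33 with vehicle and 17.2 with XY018, because the local background recovered for the region was 5.11 fragments with vehicle and 1.39 with XY018. Fold and fragments thus ran in opposite directions at this promoter. RORγ gave 35 fragments in each library (24.4 to 48.7), with folds of 17.3 and 10.4 on local backgrounds of 1.09 and 2.47 fragments.

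NCOA3, also called SRC-3 or AIB1 for its amplification in breast cancer, lies on the plus strand at chr20:46130631-46285621. Its promoter summits fell in intron 1, between 281 and 385 bp downstream of the canonical start in all 6 libraries. SREBP2 gave 27 fragments (17.8 to 39.3) and 17 (9.90 to 27.2), with folds of 11.4 and 6.99. RORγ gave 19 fragments (11.4 to 29.7) under vehicle and 25 (16.2 to 36.9) under XY018, so the order of treatments was the opposite of that for SREBP2. H3K27ac gave 124 fragments (103 to 148) and 162 (138 to 189).

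EP300 and CREBBP encode the paired acetyltransferases p300 and CBP, which acetylate H3K27 and are recruited by p160 coactivators and by SREBP2. EP300 lies on the plus strand at chr22:41488596-41576081. SREBP2 gave 50 fragments (37.1 to 65.9) at its promoter with vehicle and 43 (31.1 to 57.9) with XY018, at folds of 16.0 and 16.6. The fold with XY018 was higher than that of 93.5% of called genes, against 71.9% with vehicle. The local background under it was 2.19 fragments with vehicle and 1.65 with XY018. RORγ gave 32 fragments (21.9 to 45.2) and 28 (18.6 to 40.5), with folds of 15.8 and 9.75 on local backgrounds of 1.09 and 1.97 fragments. Scaled by the genome-wide background, the RORγ ratio of XY018 to vehicle was 0.97 (0.56 to 1.66). H3K27ac gave 227 fragments (198 to 259) and 278 (246 to 313), and its fold of 91.1 with vehicle and 123 with XY018 exceeded that of 98.9% and 98.8% of called genes. EP300 thus stood near the top of the H3K27ac range under both treatments. The window of an internal EP300 transcript also holds the start of the miRNA gene MIR1281.

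The EP300 sequence at the vehicle SREBP2 summit is shown as a contrast to NCOA1, since it holds none of the motifs searched. It runs over chr22:41488299-41488595 (hg19, plus strand), ends before the canonical start and is 77.4% G or C.
EP300 promoter: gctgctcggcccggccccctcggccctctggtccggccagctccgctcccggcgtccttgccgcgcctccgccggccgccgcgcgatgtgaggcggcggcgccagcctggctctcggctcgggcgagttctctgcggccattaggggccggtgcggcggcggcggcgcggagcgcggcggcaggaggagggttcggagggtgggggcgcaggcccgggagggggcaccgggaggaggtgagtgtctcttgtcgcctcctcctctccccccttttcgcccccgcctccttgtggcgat
No letters are in capitals because no motif was found.

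CREBBP lies on the minus strand at chr16:3775055-3930714. SREBP2 gave 48 fragments (35.4 to 63.6) at its promoter with vehicle and 36 (25.2 to 49.8) with XY018, at folds of 15.4 and 14.4. RORγ gave 36 fragments (25.2 to 49.8) and 30 (20.2 to 42.8), at folds of 15.6 and 15.1. H3K27ac gave 189 fragments (163 to 218) and 250 (220 to 283). The values for both factors were close to those at EP300. Within one broad region both factor summits stood downstream of the start with vehicle, 518 bp for SREBP2 and 443 bp for RORγ, and upstream of it with XY018, by 318 and 367 bp.

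MED1 encodes the Mediator subunit that nuclear receptors contact directly, and lies on the minus strand at chr17:37560538-37607525. It was the coregulator with the least at its promoter. H3K27ac gave 26 fragments (17.0 to 38.1) under vehicle and 27 (17.8 to 39.3) under XY018, at folds of 12.4 and 13.5, which exceeded 28.7% and 27.8% of called genes. The H3K27ac summit lay 487 and 467 bp upstream of the canonical start. No SREBP2 or RORγ region overlapped the promoter in any of the 4 factor libraries, and no MED1 transcript start had an SREBP2 region within 5 kb. With the window widened to 5 kb either side, RORγ regions were found under both treatments.

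The MED1 promoter is shown as that of the gene without a factor region. It is the RefSeq sequence of the 250 bases before the start (GRCh38.p14, minus strand), with 50.4% G or C. Capitals mark CCAAT, the box that NF-Y binds.
MED1 promoter: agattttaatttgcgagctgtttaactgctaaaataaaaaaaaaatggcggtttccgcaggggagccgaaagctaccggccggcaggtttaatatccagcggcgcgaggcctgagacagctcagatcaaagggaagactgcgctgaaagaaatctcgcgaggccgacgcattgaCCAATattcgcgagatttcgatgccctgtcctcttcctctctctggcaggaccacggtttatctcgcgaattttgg
MED1 was richer in A and T than the other coregulator promoters except NRIP1. The full RefSeq windows of 300 bases were 52.0% G or C at MED1, 50.7% at NRIP1 and between 66.7% and 85.7% at the 6 others in that table.

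NCOR1 encodes the corepressor that bridges unliganded receptors to HDAC3, and lies on the minus strand at chr17:15932379-16121499. SREBP2 gave 30 fragments (20.2 to 42.8) at its promoter with vehicle and 17 (9.90 to 27.2) with XY018, at folds of 14.9 and 8.13. RORγ was weakest here among the 8 promoters with a call, with 7 fragments (2.81 to 14.4) and a fold of 4.48 with vehicle. With XY018 the RORγ region held 16 fragments (9.15 to 26.0) at a fold of 8.56. SREBP2 and RORγ thus took opposite orders between treatments at NCOR1. H3K27ac gave 106 fragments (86.8 to 128) and 130 (109 to 154). Factor summits lay in intron 1, between 349 and 477 bp downstream of the canonical start. The promoter windows also hold starts of a long noncoding RNA gene (ENSG00000227782) and of RNU6-862P.

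HDAC3 encodes the deacetylase of the NCOR complexes, and lies on the minus strand at chr5:141000443-141016416. Its promoter windows hold the start of RELL2, which is transcribed in the opposite direction. The stronger SREBP2 region lay 623 bp upstream of the HDAC3 start with vehicle and 523 bp upstream with XY018, and also within the RELL2 promoter. It gave 17 fragments (9.90 to 27.2) and 18 (10.7 to 28.5), at folds of 8.88 and 8.58. RORγ gave 21 fragments (13.0 to 32.1) and 17 (9.90 to 27.2). H3K27ac gave 30 fragments (20.2 to 42.8) in each library. HDAC3 and MED1 were the pair with low H3K27ac, and HDAC3 alone of that pair had both factors.

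NRIP1, also called RIP140, is a corepressor that binds receptors with agonist, and lies on the minus strand at chr21:16333556-16438257. SREBP2 gave 32 fragments (21.9 to 45.2) at its promoter with vehicle and 24 (15.4 to 35.7) with XY018, at folds of 14.0 and 10.6. RORγ gave 26 fragments in each library (17.0 to 38.1), at folds of 15.1 and 15.3. H3K27ac gave 164 fragments (140 to 191) and 215 (187 to 246). NRIP1 therefore had the mark and both factors at levels near the middle of the 9 genes.

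The NRIP1 sequence around the vehicle SREBP2 summit is shown because it lies inside intron 1, past the canonical start, and is of another composition than the start itself. It runs over chr21:16436704-16437003 (hg19, minus strand), with 79.0% G or C and 4 copies of the box. Capitals mark GGGCGG or its reverse complement CCGCCC.
NRIP1 intron 1: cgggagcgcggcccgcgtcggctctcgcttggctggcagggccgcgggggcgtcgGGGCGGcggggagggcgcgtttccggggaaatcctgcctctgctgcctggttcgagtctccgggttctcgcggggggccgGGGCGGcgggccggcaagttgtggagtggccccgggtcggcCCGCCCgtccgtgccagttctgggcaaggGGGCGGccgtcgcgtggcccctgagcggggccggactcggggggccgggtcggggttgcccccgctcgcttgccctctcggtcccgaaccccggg

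The genes were then ranked by pileup. For SREBP2 with vehicle the order was NCOA2, EP300, CREBBP, NRIP1, NCOR1, NCOA3, NCOA1 and HDAC3, from 54.5 down to 16.5 times the genome-wide background, and each neighbouring pair had Poisson intervals that overlapped. The place of NCOA2 depended on the background used. Its deposited fold of 9.33, on a local background of 5.11 fragments, exceeded that of HDAC3 alone, at 8.88, and of 29.1% of called genes. For RORγ with vehicle the order ran from CREBBP, at 45.7 times background, through NCOA2, EP300, NCOA1, NRIP1, HDAC3 and NCOA3 to NCOR1, at 8.89, and neighbours again overlapped. For H3K27ac with vehicle it ran from NCOA2, at 213 times background, through EP300, CREBBP, NRIP1, NCOA1, NCOA3 and NCOR1, at 90.6, to HDAC3 at 25.6 and MED1 at 22.2. The step from NCOR1 to HDAC3 was the place in that order where neighbouring intervals did not overlap, with vehicle and with XY018.

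To compare treatments, the promoter region called in both libraries was taken for each gene. The SREBP2 ratio of XY018 to vehicle was below 1 at 8 of 8 coregulator promoters, where it was below 1 at 98.0% of 12337 genes, so this count does not set the coregulators apart. The median ratio was 0.635 at the coregulators and 0.621 over all genes. It was at most 1 over 1.5 at 5 of 8 coregulators and at 62.3% of all genes. The lowest ratio was that of NCOR1, 0.480 (0.248 to 0.898), followed by NCOA3 at 0.533 (0.273 to 1.01) and NCOA2 at 0.605 (0.393 to 0.924). CREBBP stood at 0.635 (0.400 to 0.999) and NRIP1 at 0.635 (0.358 to 1.11). EP300 stood at 0.728 (0.473 to 1.12), NCOA1 at 0.749 (0.408 to 1.37) and HDAC3 at 0.896 (0.436 to 1.85). Counting intervals excluded 1 at NCOA2, CREBBP and NCOR1, but those of all 8 genes overlapped, so that no coregulator could be told from another. All 8 intervals also included 0.621, the median over all genes. How many of all genes had intervals that excluded 1 was not counted.

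The SREBP2 libraries differed in fragment length, 185 bp with vehicle and 205 bp with XY018, and longer fragments raise the background used for scaling. Scaled by tags per kb, the coregulator median was 0.703 and that of all genes 0.688. All 8 ratios remained below 1, with HDAC3 at 0.993. Scaled by the local background, as the deposited folds are, the medians were 0.875 and 0.685, and NCOA2 and EP300 had ratios above 1, at 1.84 and 1.04. The direction at these 2 promoters thus depended on the background used.

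RORγ ratios fell on both sides of 1. They were below 1 at 4 of 8 coregulators, against 55.3% of 11311 genes, with medians of 1.05 and 0.968. Ratios ran from 0.895 (0.443 to 1.78) at HDAC3 to 1.46 (0.770 to 2.80) at NCOA3 and 2.53 (0.984 to 7.27) at NCOR1, and no interval excluded 1. The NCOR1 ratio rests on 7 vehicle fragments.

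H3K27ac ratios were above 1 at all 9 coregulators. A ratio below 1 was found at 0 of 9, against 19.6% of 12881 genes, and a ratio of at least 1.5 at 0 of 9, against 22.6%. The median was 1.43 at the coregulators and 1.27 over all genes. The 7 genes with strong H3K27ac had ratios between 1.34 and 1.49 and intervals that excluded 1, from EP300 at 1.34 (1.12 to 1.61) to NCOA1 at 1.49 (1.17 to 1.89). All 7 of those intervals included 1.27, the median over all genes. How many of all genes had intervals that excluded 1 was not counted. The ratios of HDAC3, at 1.10 (0.638 to 1.88), and MED1, at 1.14 (0.639 to 2.03), rested on 30 fragments or fewer per library and had intervals that included 1. At HDAC3 the vehicle and XY018 summits so compared lay 605 bp apart. Lower SREBP2 and higher H3K27ac pileup thus stood side by side at the same 8 promoters, as they did in the medians of all genes.

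**Figure D2:**
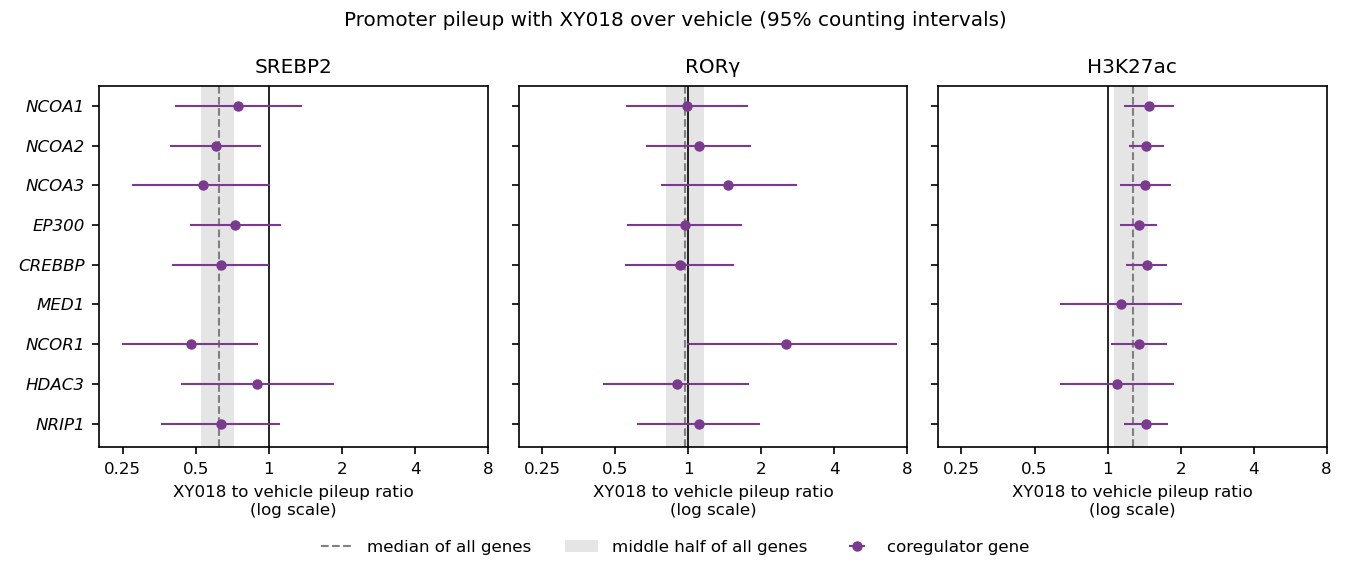
Ratio of XY018 to vehicle promoter pileup for each coregulator gene (log axis), with 95% counting intervals. The dashed line is the median and the shaded band the central range between quartiles of all genes. SREBP2 ratios lie at 0.896 or below and H3K27ac ratios at 1.10 or above, while RORγ ratios lie on both sides of 1.

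Where several factors share a promoter, the distance between their summits shows how closely they coincide. SREBP2 and RORγ summits lay between 27 bp apart, at NCOR1, and 377 bp apart, at EP300, with vehicle. With XY018 they lay between 9 bp, at NCOA3, and 650 bp, at NCOA2. Within 100 bp were 5 of the 8 promoters with vehicle (NCOA2, NCOA3, CREBBP, NCOR1 and HDAC3) and 5 with XY018 (NCOA3, EP300, CREBBP, NCOR1 and HDAC3) when the region of each factor with the highest fold was taken. At NCOA2 with XY018, the RORγ region compared between treatments was another one, with 35 fragments, and its summit lay 69 bp from that of SREBP2, which brings 6 promoters within 100 bp. The share within 100 bp over all promoters with both factors was not counted. These counts therefore do not set the coregulators apart.

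Sequence motifs were counted in the 300 bp around the vehicle SREBP2 summit of each promoter, on both strands. The sterol regulatory element TCACNCCAC was found at 0 of 8 coregulators and 1.04% of 14188 promoters. CCAAT was found at 0 of 8 and 13.7%, the E-box CACGTG at 0 of 8 and 6.98%, and AGGTCA at 0 of 8 and 8.89%. Only exact matches were counted. The putative RORγ elements that the study mutated in the MVK and HMGCS1 promoters hold no AGGTCA, so this search would miss such elements. The count for AGGTCA therefore cannot show whether receptor sites were absent. GGGCGG was found at 6 of 8 and 77.7%, with 8 copies at NCOA1, 7 at NCOA2, 4 each at CREBBP and NRIP1, 3 at HDAC3 and 1 at NCOA3. EP300 and NCOR1 had none. The median G and C content was 78.2% at the coregulators and 72.7% over all promoters.

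In the RefSeq promoters of 300 bases around the start (GRCh38.p14), 8 of the 9 genes were matched, with MED1 in place of NCOA2. The sterol element was found at 0 of 8 and 1.18% of 15289 promoters, CACGTG at 0 of 8 and 8.89%, and AGGTCA at 0 of 8 and 11.5%. CCAAT was found at 2 of 8, MED1 and NRIP1, and 36.6%. GGGCGG was found at 4 of 8 and 59.3%. NCOA2 was not matched.

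The loci were considered next, over 1510 kb in all. With each antibody, a vehicle region was kept when it shared at least 1 bp with an XY018 region. Of 55 SREBP2 vehicle regions, 18 were kept (32.7%, 20.7 to 46.7%), against 39.8% of the whole list, and 27 regions were called with XY018. Of 70 RORγ regions, 25 were kept (35.7%, 24.6 to 48.1%), against 36.4%, and 58 were called with XY018. Of 111 H3K27ac regions, 65 were kept (58.6%, 48.8 to 67.8%), against 69.3%, and 116 were called with XY018. The share for H3K27ac lay below that of the whole list with an interval that excluded it, and the intervals for both factors included it. Intervals of shares, here and below, treat regions as independent, although many lie in one locus. NCOA2, NCOA3 and EP300 held 25 H3K27ac vehicle regions each, of which 48.0%, 72.0% and 52.0% were kept. The factor shares moved with the length of the lists, as SREBP2 had 117441 regions with vehicle and 69700 with XY018. With lists of equal length the SREBP2 share was 56.2%, and at a q of at most 1e-05 it was 66.7%, where the RORγ share was 84.2%.

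The kept shares were given apart for promoters and for the rest of the loci. At the coregulator promoters, 11 of 16 SREBP2 vehicle regions were kept, against 74.0% of all promoter regions. Those not kept lay at internal transcript starts of NCOA2 and CREBBP, between 29971 and 254477 bp downstream of the canonical start. Wherever an SREBP2 region lay over a canonical start, it was kept. For RORγ it was 11 of 14, against 78.6%, and for H3K27ac 15 of 17, against 86.9%. Of the 39 SREBP2 regions outside these promoters 7 were kept, and 5 of the 39 lay in the promoter of a neighbouring gene.

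Outside every coding promoter, 4 of 34 SREBP2 regions were kept (11.8%, 3.30 to 27.5%), against 31.4% of all such regions, which the interval excluded. With lists of equal length the share was 28.6% (8.39 to 58.1%) against 53.7%, which the interval included. For RORγ 10 of 51 were kept (19.6%, 9.82 to 33.1%), against 30.5%. For H3K27ac 45 of 89 were kept (50.6%, 39.8 to 61.3%), against 63.9%, also excluded by the interval. Of the 34 SREBP2 regions 9 overlapped a RORγ region, of which 3 were kept, and 25 did not, of which 1 was kept. Over the whole list, 59.7% of such regions with RORγ and 9.90% of those without it were kept, so the same order held there.

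**Figure D3:**
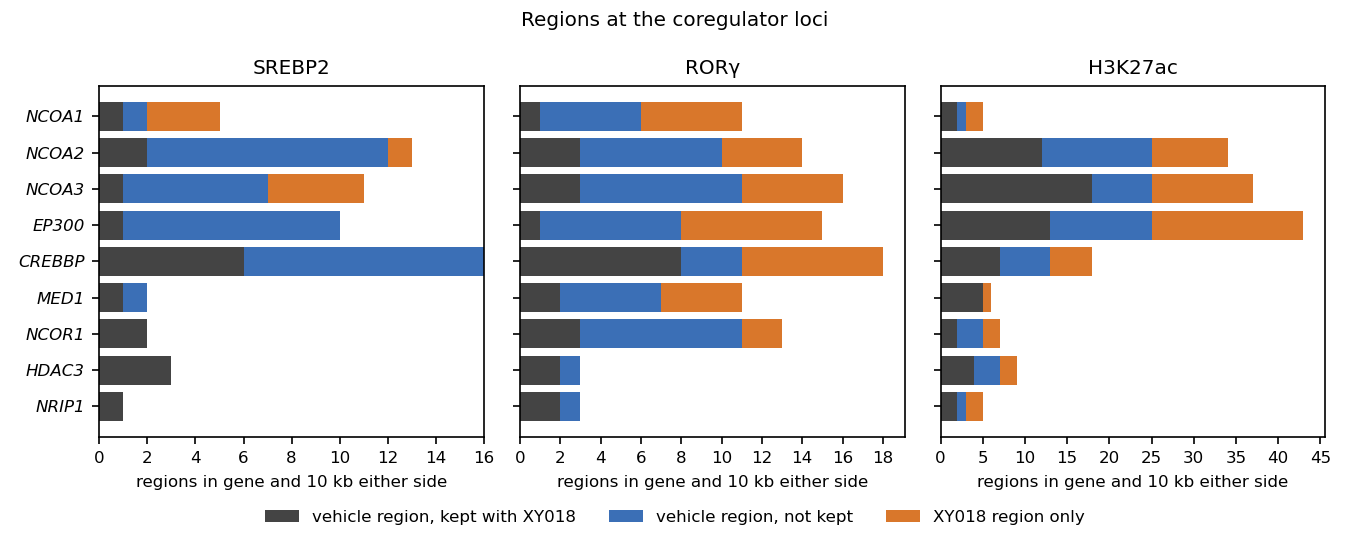
Number of called regions in each gene and 10 kb either side, for SREBP2, RORγ and H3K27ac. Dark bars are vehicle regions kept with XY018, blue bars vehicle regions not kept, and orange bars regions called with XY018 only. At EP300, 1 of 10 SREBP2 vehicle regions was kept, and its H3K27ac regions with XY018, 32, were the most of any of the 9 loci.

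The loci differed widely in density. EP300 had 10 SREBP2 regions with vehicle and 1, that of the promoter, with XY018, in the library with the shorter list. The 9 others had folds of 2.68 to 4.79 and −log10 q of 0.913 to 4.69, and lay scattered through the gene and its flanks. H3K27ac was dense there, with 25 regions with vehicle and 32 with XY018, or 23.3 and 29.8 per 100 kb, above 85.2% and 88.5% of coding genes. NCOA2 had 12 SREBP2 regions with vehicle, of which 2 were kept, and 3 with XY018, with 25 and 22 H3K27ac regions. NCOA3 had 7 SREBP2 regions with vehicle, of which 1 was kept, and 25 and 26 H3K27ac regions. Together with CREBBP, these loci held every SREBP2 vehicle region that was not kept, except 1 at NCOA1 and 1 at MED1.

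The other loci held fewer SREBP2 regions with vehicle. Per 100 kb, however, HDAC3 had 8.34 with vehicle and 11.1 with XY018, above 60.7% and 80.4% of coding genes, where NCOA2 had 3.82 with vehicle. NRIP1 had 1 SREBP2 region in each library, at its promoter, in a locus of 125 kb, and NCOR1 had 2 in each, all of which were kept. NCOA1 had 2 with vehicle and 4 with XY018 in 299 kb. Its strongest region outside the promoter, in intron 2 (chr2:24788484-24788878), had a fold of 7.86 and 16 fragments and was not called with XY018. At MED1 the SREBP2 region kept under both treatments lay over the promoter of the downstream neighbour FBXL20, with 31 and 25 fragments and a ratio of 0.683 (0.386 to 1.19). At HDAC3 such a region lay over the DIAPH1 promoter, with 21 and 15 fragments at the stronger XY018 region.

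CREBBP differed from the others in having strong factor regions at its 3′ end. It had 16 SREBP2 regions with vehicle, of which 6 were kept, and those 6 were its only SREBP2 regions with XY018. One was the promoter, 4 lay between intron 28 and the last exon, and one lay over the promoter of the downstream gene TRAP1. The strongest, in exon 31 (chr16:3777775-3779878 with vehicle), held 76 SREBP2 fragments under vehicle and 67 under XY018, at folds of 19.6 and 24.4 and a ratio of 0.746 (0.529 to 1.05). That was more than at the CREBBP promoter, with 48 and 36. RORγ gave 58 and 50 fragments there, at folds of 27.1 and 17.2 and a ratio of 0.953 (0.640 to 1.42). H3K27ac was far weaker in exon 31 than at the promoter, with 42 fragments in its stronger region with vehicle and 35 with XY018.

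The CREBBP sequence around the vehicle SREBP2 summit is shown because all of its 300 bases are protein-coding, in exon 31. It runs over chr16:3779170-3779469 (hg19, minus strand), with 71.7% G or C. Capitals mark CCGCCC.
CREBBP exon 31: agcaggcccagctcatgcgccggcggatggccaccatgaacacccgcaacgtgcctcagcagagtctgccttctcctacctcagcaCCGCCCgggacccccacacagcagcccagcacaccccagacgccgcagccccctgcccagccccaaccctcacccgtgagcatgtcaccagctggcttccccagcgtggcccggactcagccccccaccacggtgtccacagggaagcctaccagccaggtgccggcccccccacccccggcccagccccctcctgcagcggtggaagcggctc
Of 15 consecutive pieces of 20 bases, 1 had another copy in the genome.

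Nearer the 3′ end of exon 31, a region at chr16:3776336-3776594 held 29 SREBP2 fragments under vehicle and 10 under XY018, a ratio of 0.292 (0.127 to 0.616), with no RORγ or H3K27ac region under either treatment. That was the lowest SREBP2 ratio outside the coregulator promoters, where ratios ran up to 1.13 (0.549 to 2.37). A region in intron 28 (chr16:3784604-3785254) held 38 and 29 fragments, a ratio of 0.646 (0.384 to 1.08), and RORγ there gave 14 and 24 fragments, a ratio of 1.90 (0.942 to 3.96).

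**Figure D4:**
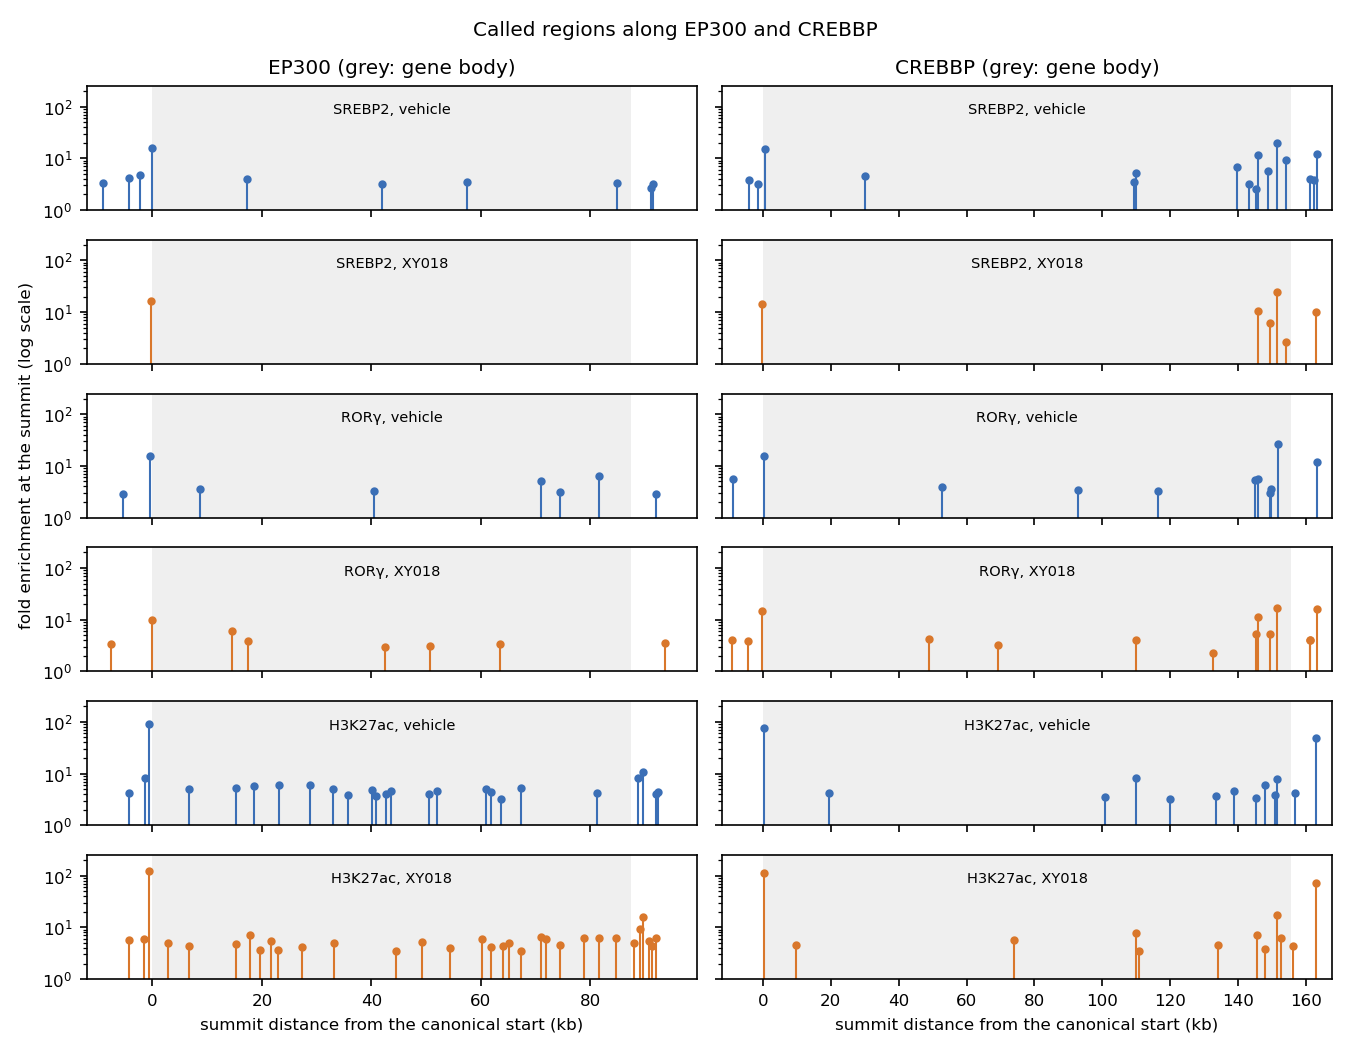
Called regions along EP300 and CREBBP in the 6 libraries, placed by the distance of the summit from the canonical start (kb, in the direction of transcription), with the fold enrichment as height (log axis). At EP300 the SREBP2 regions other than that at the start are absent with XY018, and at CREBBP a group of SREBP2 and RORγ regions near the 3′ end of the gene is present under both treatments.

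Regions outside every coding promoter were then compared between treatments, each vehicle region with the XY018 region of most fragments. SREBP2 ratios were below 1 in 3 of 4, with a median of 0.696, against 93.2% and 0.611 over 29224 such regions of the list. RORγ ratios were below 1 in 5 of 9, with a median of 0.987, against 42.2% and 1.11. H3K27ac ratios were below 1 in 19 of 44, with a median of 1.10, against 37.7% and 1.10. The SREBP2 regions over the promoters of TRAP1, FBXL20 and DIAPH1 were left out of these counts.

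Other coregulators were set beside the 9 genes, as a list of 35. SREBP2 promoter regions were called at 34 of 35 with vehicle and 33 of 35 with XY018, RORγ regions at 33 and 32, and H3K27ac regions at 33 and 33. Their median H3K27ac fold was 40.1 with vehicle and 60.9 with XY018. These values also lay above the medians of all called genes, 24.4 and 29.5, so high H3K27ac was not particular to the 9 genes. PPARGC1A, the PGC-1α coactivator of energy metabolism, had no promoter region in any library. The median SREBP2 ratio was 0.692, and 32 of 32 ratios were below 1. RORγ had a median of 0.978, with 17 of 30 below 1, and H3K27ac a median of 1.31, with 2 of 33 below 1. The 9 genes had medians of 0.635, 1.05 and 1.43, so SREBP2 was below and H3K27ac above 1 in both lists.

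By the rule for naming, the 4 highest SREBP2 ratios in that list were those of the corepressor CTBP2 at 0.957 (0.525 to 1.76), NCOA7 at 0.931 (0.485 to 1.80), the Mediator kinase module subunit MED12 at 0.931 (0.359 to 2.45) and the chromatin remodelling ATPase SMARCA4 at 0.905 (0.584 to 1.41). The 4 lowest were those of the orphan receptor and corepressor NR0B2 at 0.445 (0.185 to 1.01), NCOA4 at 0.490 (0.211 to 1.08), the deacetylase HDAC7 at 0.490 (0.276 to 0.850) and the histone demethylase KDM1A at 0.511 (0.311 to 0.828). The intervals of all 8 genes overlapped one another. KAT5, the TIP60 acetyltransferase, was the gene whose SREBP2 call differed, with a fold of 3.45 with vehicle and no region with XY018.

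Finally, the genes most like the coregulators were sought among 9311 coding genes with promoter regions in all 6 libraries, by the distance of their 6 log2 folds to the median profile of the 8 coregulators with all regions. UBXN2A was nearest, at 0.256, followed by ZBTB38 at 0.289 and TYMP at 0.295. UBXN2A had folds of 14.8 and 10.8 for SREBP2, 14.0 and 12.8 for RORγ and 66.4 and 96.7 for H3K27ac, where the coregulator medians were 13.7 and 10.7, 15.3 and 12.6, and 59.2 and 91.4. Among the 8 coregulators, NRIP1 and NCOA1 lay nearest to that median, at 0.307 and 0.311, and NCOR1 and HDAC3 farthest, at 2.0 and 3.42.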

How the data were processed

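The 6 immunoprecipitated HCC70 libraries were grouped by the labels of antibody and treatment, with 1 library per group. By the study's methods, single-end tags were aligned to hg19 with BWA, whereas the submitters' processing notes name Bowtie2. Unique, deduplicated tags went to MACS2 2.1.0, which called peaks in each library. Each deposited list gives the authors' fold enrichment, a ratio to the local background, and the −log10 p and −log10 q values, with a summit offset and a display score that was not used. The deposited H3K27ac lists were subsets, as their peaks were numbered up to 245055 and 241397, and the sources used here give no selection rule. The fold and −log10 p were converted to fragments at the summit with the Poisson tail that MACS uses. Between 99.9991% and 100% of regions gave whole numbers, to within 0.05 fragments. The inversion was tested on simulated data.

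Genes came from GENCODE 44 lifted to GRCh37, the build of hg19, and 0 regions ended past a chromosome. Regions were paired by an overlap of at least 1 bp, and the promoter pair with the most fragments in both libraries together was used. Distances were counted from the Ensembl canonical start. Calculations used Python 3.11.15 with pandas 2.3.3, scipy 1.17.1 and pysam 0.24.0. The named genes were the 9 coregulators, the genes with a start in their promoter windows, the 4 highest and 4 lowest SREBP2 ratios and any changed SREBP2 call among 35 other coregulators, and the 3 nearest profiles. Genes named beside a region, and regions outside promoters, were singled out after their values were seen. The genes, lists, motifs and alternatives were chosen with earlier results of these data known. A region within NCOR1, outside its promoter, is not reported here.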

Additional observations from a re-analysis of the deposited data

Results flagged for a closer look

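At the coregulator promoters, SREBP2 and H3K27ac took opposite directions under the same contrast. The median ratio of XY018 to vehicle pileup was 0.635 for SREBP2, with 8 of 8 genes below 1, and 1.43 for H3K27ac, with 9 of 9 genes above 1. All coding genes had medians of 0.621 and 1.27. The difference was not tested, since each group had 1 library.

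SREBP2 lay below and RORγ above 1 at 4 of 8 promoters, those of NCOA2, NCOA3, NCOR1 and NRIP1. At NCOA2 and NRIP1 the RORγ ratio of 1.11 came from the scaling, as each library held 35 fragments at NCOA2 and 26 at NRIP1. As ratios of deposited folds, NCOA2 took the opposite order, with 1.84 for SREBP2 and 0.602 for RORγ. Over all genes with a ratio, SREBP2 was below 1 at 98.0% and RORγ at 55.3%. The share of genes with both orders was not counted, so the count does not set the coregulators apart. The gap was widest at NCOR1, with a ratio of 0.480 for SREBP2 (30 and 17 fragments) and 2.53 for RORγ (7 and 16 fragments). The RORγ intervals of all 4 genes included 1, and the difference was not tested.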

How the results depend on the processing

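Of 78 alternative values, 65 stayed within 1.5 times the reported count or within its interval or quartile range, 11 moved further and 2 reversed. With the summit required in the promoter window, SREBP2 was called at 5 coregulators with vehicle and at 5 with XY018, as NCOA3, NCOR1 and NRIP1 have their summits past 100 bp. By the same rule SREBP2 was called at 56.0% and 49.0% of all genes, so this count does not set the coregulators apart. RORγ was then called at 7 and 6 coregulators, against 49.4% and 47.5% of all genes. H3K27ac was called at 6 and 7 in place of 9, against 51.5% and 52.6%. With factor summits within 100 bp, 5 coregulators had all 3 antibodies with vehicle, and no share over all genes was counted. The SREBP2 kept share was 66.7% at q of at most 1e-05 and 56.2% with lists of equal length, and the RORγ kept share 51.3% at q of at most 0.01 and 84.2% at 1e-05. Outside every coding promoter, alternatives were chosen after seeing the data. The SREBP2 share was 42.9% (9.90 to 81.6%) at 1e-05, against 51.8% of all such regions. With lists of equal length it was 28.6%, against 53.7%. The RORγ share was 57.1% (18.4 to 90.1%) at 1e-05, against 74.1%. Both shares at 1e-05 rest on 7 regions, and their intervals included the shares of the lists. The RORγ median ratio reversed to 0.987 at q of at most 1e-05, where NCOR1 had no vehicle region, and to 0.952 as a ratio of deposited folds, an alternative chosen after seeing the data. On that scale the SREBP2 median was 0.875. The cause was not tested, beyond the fewer regions that stricter thresholds leave.

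No paired analysis was possible because each group held 1 library. For the same reason no replicate could be left out. Factor promoters held at most 56 fragments at a summit, and RORγ at NCOR1 held 7 with vehicle, which sets the width of the intervals.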
